A study of Mus musculus with 4 samples.

Results

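The RNA of 10 genes of the Polycomb repressive complexes is described here. They were chosen by name from the 24637 genes of the expression table, with earlier results of these data known, and all 10 were found. The shares of genes called, set below beside those of all genes, are therefore a description and no independent support. *Ezh1*, *Ezh2*, *Suz12*, *Eed* and *Jarid2* belong to Polycomb repressive complex 2 (PRC2), and *Cbx2*, *Cbx6*, *Cbx7*, *Phc1* and *Rybp* to Polycomb repressive complex 1 (PRC1). These complexes keep developmental genes silent. PRC2 methylates lysine 27 of histone H3 (H3K27), and PRC1 ubiquitinates histone H2A and, in its canonical form, reads the mark that PRC2 leaves. Embryonic stem cells (ESCs) use a particular set of subunits, and the choice of subunit is known to shift as they differentiate.

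The 4 mRNA libraries came from 4 separate mouse ESC lines, made from blastocysts of crosses between heterozygous parents. A pair was WT (Taf4+/+) and a pair carried a deletion of internal exons on both copies of *Taf4a* (labelled *Taf4a*-/-), a gene of the TFIID core. All lines were kept on fibroblast feeders, grown as embryoid bodies for 5 days and then on gelatin-coated plates for 9 days, at which point the labels call the cultures cardiac cells. The question of the comparison was what differs between the genotypes during differentiation towards cardiomyocytes. Values are normalized counts, which are reads per gene divided by a size factor for each library, and each line was sequenced once, so that a replicate is a line.

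The depth was 21732746 to 27733034 reads on genes per library. The RNA of the targeted gene did not show a loss. The normalized counts of *Taf4a* were 889 and 678 in WT and higher in the other lines, at 1722 and 1799. The log2 fold change was 1.18 (SE 0.16, limma adjusted p = 0.00569). Reads were counted over the whole gene and not over the deleted exons alone. *Taf4a*-/- is therefore the name the labels give. The authors typed the lines by PCR and reported no Taf4 protein in the mutant ESCs by immunostaining, which these counts do not measure. The cultures also differed in cell type markers. All 10 cardiomyocyte markers were lower in the libraries labelled *Taf4a*-/-, and their summed level was 30179 and 27406 normalized counts in WT against 3166 and 2910. In a list of 10 pluripotent cell markers 8 were higher and 0 lower, and their summed level was 5847 and 2935 in WT replicates 1 and 2 against 17272 and 19429. All 10 macrophage markers and all 10 visceral endoderm and liver markers were lower, as were 7 of 10 fibroblast markers. Of 10 markers of cycling cells, 0 were higher and 1, *Cdk1*, was lower, at a median log2 fold change of 0.13. In a mixed culture, fewer cells of a type and less RNA per cell cannot be told apart. The part of these cell types in the values below was not tested. The 4 lines also differed in Y-linked RNA, as *Uty* was at 764 normalized counts in replicate 1 of WT, at 140.0 in replicate 1 of *Taf4a*-/- and at 0 in replicate 2 of both.

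Of the 10 Polycomb genes, 5 were higher in the libraries labelled *Taf4a*-/- and 0 were lower at an adjusted p-value under 0.05 (limma over 16926 genes, Benjamini-Hochberg). Over all genes tested, 11.3% were called higher and 17.3% lower, and among the 5955 genes whose mean reached 1000 normalized counts, a limit chosen after the values were seen, 14.9% were called higher and 14.4% lower. The genes that passed were *Suz12*, *Eed* and *Jarid2* of PRC2 and *Cbx7* and *Phc1* of PRC1. None was lower at an unadjusted p under 0.05 or with limma's voom on the reads, and 7 were higher at that unadjusted p. Of the 16926 genes tested, 7193 were under that unadjusted p, in either direction. Both libraries labelled *Taf4a*-/- lay above both WT libraries for 8 of the 10 genes, against 34.5% of all genes tested, and *Ezh1* and *Cbx6* overlapped. At an adjusted p-value under 0.01, 2 of the 10 were higher, *Jarid2* and *Cbx7*, against 1.96% of all genes. Each fold change below is that of *Taf4a*-/- against WT on the log2 scale, with its standard error after the ± sign (2 lines each). The median log2 fold change of the 10 genes was 0.59, and that of all genes tested was -0.01. A permutation of 2 libraries against 2 cannot give a p-value under 0.333, so every call depends on limma's estimate of spread, which borrows from the other genes.

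**Figure D1:**
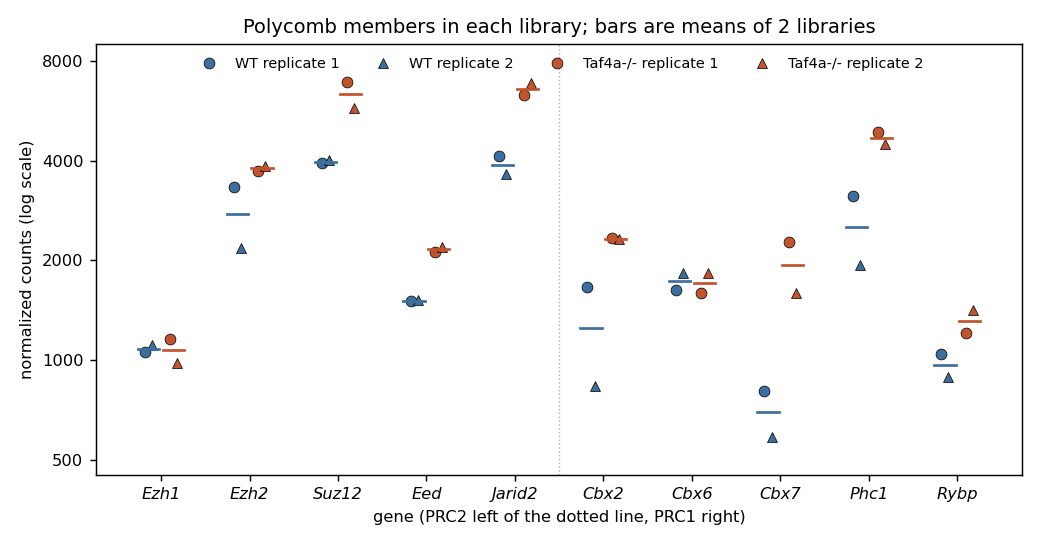
Normalized counts (y axis, log scale) of the 10 Polycomb genes (x axis) in each of the 4 libraries, with blue for WT, red for *Taf4a*-/-, circles for replicate 1, triangles for replicate 2 and bars for the mean of 2 libraries. Red points lie above both blue points for every gene but *Ezh1* and *Cbx6*, and the blue points lie far apart for *Ezh2*, *Cbx2* and *Phc1*.

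The promoters show what these genes have in common in sequence and where they differ. RefSeq windows of 300 bases, with 250 before the start of transcription, were available for 8 of the 10 genes, and *Jarid2* had a pair of them. Each of the 9 windows matched NCBIM37 once and exactly, which gave the coordinates. The 120 bases just before the start are shown for *Suz12* and *Cbx7*, which held the most CG of all genes that rose, for *Phc1*, which held the fewest, for *Ezh1*, whose values overlapped between the genotypes, and for the second start of *Jarid2*, the only window with a TATA box. They read 5′ to 3′ on the strand of the gene, and capitals mark CG and the TATA box.

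*Suz12*, chr11:79806488-79806607, plus strand: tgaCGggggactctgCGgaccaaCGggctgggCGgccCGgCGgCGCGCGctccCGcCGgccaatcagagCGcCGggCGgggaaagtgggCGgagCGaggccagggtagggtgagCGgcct

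*Cbx7*, chr15:79763077-79763196, minus strand: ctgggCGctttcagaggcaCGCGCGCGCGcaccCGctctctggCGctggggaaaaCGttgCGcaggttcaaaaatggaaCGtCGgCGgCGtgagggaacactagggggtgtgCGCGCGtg

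*Phc1*, chr6:122290246-122290365, minus strand: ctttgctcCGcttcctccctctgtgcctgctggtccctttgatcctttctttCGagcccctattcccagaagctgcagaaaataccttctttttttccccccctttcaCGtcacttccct

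*Ezh1*, chr11:101087778-101087897, minus strand: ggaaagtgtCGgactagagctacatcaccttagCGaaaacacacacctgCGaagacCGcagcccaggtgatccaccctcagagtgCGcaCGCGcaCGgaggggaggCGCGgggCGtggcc

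*Jarid2*, second start, chr13:44826520-44826639, plus strand: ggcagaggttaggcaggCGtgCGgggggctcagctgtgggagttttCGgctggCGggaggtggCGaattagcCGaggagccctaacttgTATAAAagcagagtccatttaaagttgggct

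All 9 windows held more CG than the median of all 32851 promoter windows of the same length, which was 7 (quartiles 3 and 20). *Suz12* had 41, *Cbx7* had 33, *Ezh2* and *Cbx6* had 31 each, and the *Jarid2* windows had 24 and 23. *Ezh1* had 23, *Eed* 17 and *Phc1* 9. CG content did not separate the genes that rose from those that did not, as *Suz12* and *Phc1* were at either end of the range and both rose.

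Motifs were searched by their letters on both strands, and none overlapped another in these windows. Positions give the first base of a match, counted from 1 at the start of transcription and from -1 just before it. TATAAA was found in 1 of the 9 windows, at position -31 of the second *Jarid2* start, and in 13.6% of all windows. CCAAT was found in 6 of 9 windows and in 37.4% of all, and GGGCGG in 5 of 9 and in 35.7%. The letters TTTCGCGC, TTTGGCGC, TTTCCCGC or TTTGCCGC, which are forms of the E2F site, were found in 2 of the 9 windows and in 2.26% of all. These were *Suz12*, at position -219, and *Ezh2*, at position 4. *Ezh1* and *Phc1* held none of these motifs in their windows. A match of letters is a description and does not show binding.

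PRC2 has a core of an enzyme, *Ezh1* or *Ezh2*, with the partners *Suz12* and *Eed*. *Suz12*, the scaffold of the complex (chr11:79806608-79847625), was at 3941 and 4006 normalized counts in WT lines 1 and 2, and at 6915 and 5779.8 in *Taf4a*-/- lines 1 and 2. The WT lines were nearly equal, and both other lines were above them, with replicate 1 the higher. The rise was 1.59-fold, or 0.67 ± 0.13 on the log2 scale (limma adjusted p = 0.0159). *Suz12* lies on chromosome 11, where the median gene of the library labelled *Taf4a*-/- replicate 1 was 0.14 above its mean on the log2 scale, against -0.03 in replicate 2. *Ezh1*, *Cbx2*, *Cbx8* and *Epop* are on the same chromosome. *Suz12* was not called without that library, at a log2 fold change of 0.54 (adjusted p = 0.142). It was not called without WT replicate 2 either, at 0.68 (adjusted p = 0.0620). With chromosome medians made equal between libraries, *Suz12* was at 0.58 and called (limma adjusted p = 0.0130). *Cbx2* was then at 0.89 and not called (limma adjusted p = 0.0684). On chromosome 6, which holds *Ezh2*, *Phc1* and *Rybp*, the medians were 0.08 and 0.06 in WT and -0.09 and -0.01 in *Taf4a*-/-. With equal medians *Ezh2* was at 0.61 and not called (limma adjusted p = 0.0561), and *Phc1* at 1.05 and called (limma adjusted p = 0.0178). An RNA gene on the other strand, *Gm16706*, shares 178 bases with the exons of *Suz12*, and it had 7.89 to 31.0 normalized counts.

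*Eed*, which reads methylated H3K27 and stimulates the enzyme (chr7:97103166-97129493), had 1503 and 1514 normalized counts in WT and 2122 and 2194 in the libraries labelled *Taf4a*-/-. Within each genotype the values were close, and the genotypes did not overlap. The rise was 1.43-fold, or 0.52 ± 0.11 on the log2 scale (limma adjusted p = 0.0209). The size was 0.49 to 0.54 when each library was left out in turn. The call was lost without *Taf4a*-/- replicate 1 (adjusted p = 0.135) and without replicate 2 (adjusted p = 0.169).

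*Jarid2*, an accessory subunit that helps PRC2 to reach its targets (chr13:44824843-45017012), had 4118 and 3646 normalized counts in WT and 6312 and 6852 in the libraries labelled *Taf4a*-/-. The gap between the genotypes was larger than that between the lines of either. The rise was 1.70-fold, or 0.76 ± 0.12 on the log2 scale (limma adjusted p = 0.00924). Without *Taf4a*-/- replicate 2 it was 0.70 and no longer called (adjusted p = 0.0668), and *Jarid2* was called without each of the other 3 libraries.

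The enzymes gave another picture. *Ezh2*, the methyltransferase that dominates in dividing cells (chr6:47480273-47545340), was at 3320.1 and 2181 normalized counts in WT lines 1 and 2, and at 3726 and 3851 in the libraries labelled *Taf4a*-/-. Most of the spread was on the WT side, where the lines differed by 0.61 on the log2 scale. The difference of 0.49 ± 0.20 on the log2 scale missed the threshold (limma adjusted p = 0.118). It was 0.80 without WT replicate 1 and called (adjusted p = 0.0163), and 0.19 without WT replicate 2 and not called (adjusted p = 0.183). *Ezh1*, the paralogue known from non-dividing cells (chr11:101052429-101087777), had 1055 and 1107 normalized counts in WT and 1159 and 978 in the other lines. The genotypes overlapped, and the difference of -0.02 on the log2 scale (SE 0.14, limma adjusted p = 0.923) took either sign between -0.14 and 0.10 with 1 library left out.

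Per kilobase of exon, *Ezh2* was above *Ezh1* in every library. The ratio of *Ezh2* to *Ezh1* was 3.78 and 2.37 in WT and 3.86 and 4.73 in the libraries labelled *Taf4a*-/-. Both of the latter were higher, but replicate 1 of each genotype gave nearly the same ratio, and no test was made of it. As a share of both genes, *Ezh2* took 79.1% and 70.3% in WT against 79.4% and 82.5%.

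PRC1 is built on the ubiquitin ligases *Ring1* and *Rnf2*. A chromobox (Cbx) protein brings the canonical complex to methylated H3K27, and a polyhomeotic (Phc) protein lets complexes join together. *Cbx7*, the chromobox protein that prevails in ESCs (chr15:79746237-79801549), rose the most of the 10 genes. It had 807 and 585 normalized counts in WT and 2267 and 1590.4 in the libraries labelled *Taf4a*-/-. The lowest of the latter was well above the highest WT value, and replicate 1 exceeded replicate 2 in both genotypes. The rise was 2.76-fold, or 1.47 ± 0.23 on the log2 scale (limma adjusted p = 0.00823). With 1 library left out it was 1.21 to 1.72, and it missed the threshold without WT replicate 2 (adjusted p = 0.0599).

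*Cbx2*, a chromobox protein that compacts nucleosomes (chr11:118884276-118892584), had 1663 and 833 normalized counts in WT and 2329.8 and 2311 in the libraries labelled *Taf4a*-/-. The WT lines differed by 0.996 on the log2 scale, as much as the genotypes did, while the other lines were equal within 0.01. The difference of 0.98 ± 0.30 on the log2 scale missed the threshold (limma adjusted p = 0.0573). It was called at 1.48 without WT replicate 1 (adjusted p = 0.0144) and at 0.48 without WT replicate 2 (adjusted p = 0.0493). *Cbx6* (chr15:79654326-79665118), the third of these chromobox genes, had 1625 and 1835 normalized counts in WT and 1591 and 1829 in the other lines. The ranges overlapped almost wholly, with a log2 fold change of -0.02 ± 0.13 (limma adjusted p = 0.933). *Cbx6* shares 1175 exon bases with *Npcd* on the same strand, which had 0 to 5.20 normalized counts, and *Cbx6* and *Cbx7* lie close together on chromosome 15.

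The makeup of these chromobox genes differed between the cultures, a description with no test. Per kilobase of exon, *Cbx7* made up 23.5% and 22.5% of the summed level of *Cbx2*, *Cbx6*, *Cbx7* and *Cbx8* in WT, and 40.5% and 31.8% in the libraries labelled *Taf4a*-/-. The *Cbx6* share moved the other way, from 28.5% and 42.5% to 17.1% and 22.1%, with its level nearly the same. *Cbx2* took 43.1% and 28.5% in WT and 37.1% and 41.2% in the other lines, which overlapped. The ratio of *Cbx7* to *Cbx6* was 0.824 and 0.529 in WT and 2.37 and 1.44 in the libraries labelled *Taf4a*-/-, so that the order of these genes was opposite in the genotypes. The ratio of *Cbx7* to *Cbx2* was 0.545 and 0.788 in WT and 1.09 and 0.773, and did not separate them. *Cbx8*, a paralogue outside the 10 genes, had 162 and 162 normalized counts in WT and 289 and 240.0 in the others, a difference of 0.70 ± 0.21 on the log2 scale that missed the threshold (limma adjusted p = 0.0507).

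**Figure D2:**
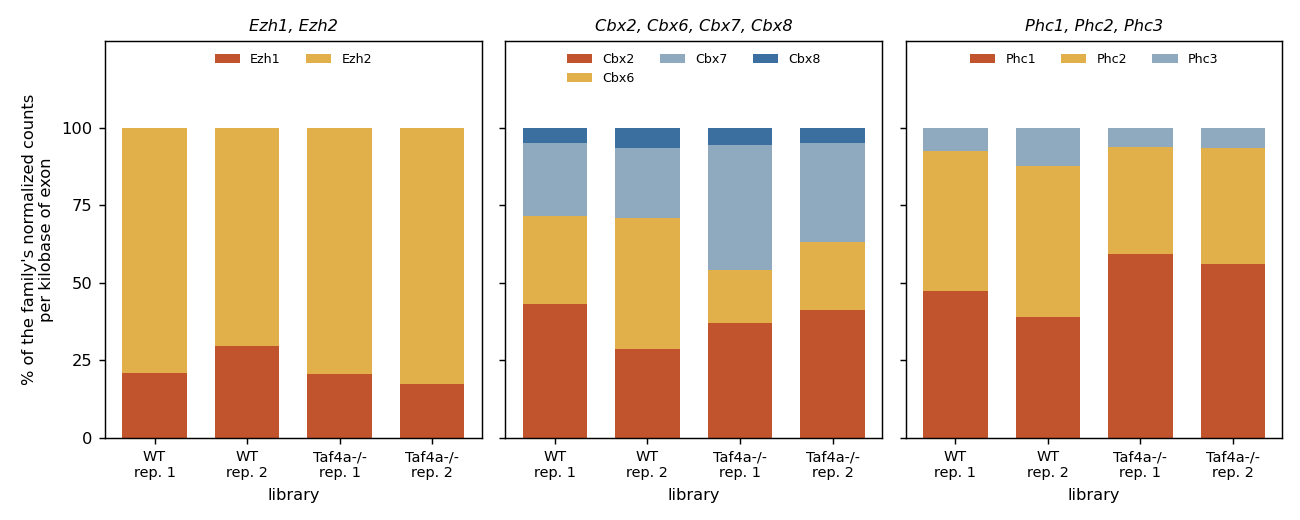
Share of the summed normalized counts per kilobase of exon (y axis, percent) that each paralogue took in each of the 4 libraries (x axis), for the Ezh genes, 4 Cbx genes and the Phc genes. *Cbx7* takes 23.5% and 22.5% in WT and 40.5% and 31.8% in the others, the *Cbx6* band is narrower there, and *Phc1* takes 59.3% and 56.2% of its family in the libraries labelled *Taf4a*-/-.

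*Phc1*, the polyhomeotic gene most tied to ESCs (chr6:122267749-122290579), was at 3120.2 and 1935 normalized counts in WT lines 1 and 2, and at 4866 and 4475 in the libraries labelled *Taf4a*-/-. The genotypes did not overlap, and WT replicate 1 was again the nearer of the WT lines to the others. The rise was 1.90-fold, or 0.93 ± 0.23 on the log2 scale (limma adjusted p = 0.0297). It was 0.58 without WT replicate 2 (adjusted p = 0.0475) and 1.27 without WT replicate 1 (adjusted p = 0.0152), and was not called without *Taf4a*-/- replicate 1 (0.86, adjusted p = 0.0660).

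The other polyhomeotic genes did not pass the test. *Phc2* had 3946 and 3232 normalized counts in WT and 3761 and 3945 in the other lines, or 0.11 ± 0.14 on the log2 scale (limma adjusted p = 0.575). *Phc3* had a log2 fold change of -0.07 ± 0.14 (limma adjusted p = 0.739). Per kilobase of exon, the share of *Phc1* in the 3 genes was 47.4% and 38.9% in WT and 59.3% and 56.2% in the libraries labelled *Taf4a*-/-. With the longest transcript as the length, *Phc2* took the largest share in WT, 54.1% and 57.6%, and *Phc1* in the others, 51.3% and 48.1%.

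*Rybp*, which takes the place of the chromobox protein in the non-canonical form of PRC1 (chr6:100178560-100237435), had 1039.8 and 885 normalized counts in WT and 1209.9 and 1418 in the libraries labelled *Taf4a*-/-. The genotypes did not overlap, but the difference of 0.45 ± 0.15 on the log2 scale missed the threshold (limma adjusted p = 0.0694). *Rybp* was called with quantile normalization (0.52, limma adjusted p = 0.0471) and with equal chromosome medians (0.57, limma adjusted p = 0.0259). Its paralogue *Yaf2* had 1219.5 and 1416 normalized counts in WT and 1165 and 1303 in the others, or -0.09 ± 0.14 on the log2 scale (limma adjusted p = 0.640).

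Per kilobase of exon, taken over all exons of a gene, *Suz12* had the highest level of the 10 genes in both genotypes, 803 ± 9.25 normalized counts per kilobase in WT and 1284 ± 162 in *Taf4a*-/- (SD, n = 2 each, as for the others), and *Ezh1* the lowest, 145 ± 4.93 and 144 ± 17.2. In WT the order below *Suz12* was *Eed* (680.0 ± 3.57), *Phc1* (477 ± 158), *Ezh2* (444, from 352 to 536), *Jarid2* (399.6 ± 34.3), *Cbx2* (293 ± 138), *Cbx6* (275 ± 23.6), *Rybp* (216 ± 24.5) and *Cbx7* (184 ± 41.3). From *Phc1* down, the ranges of neighbours overlapped, except that *Cbx6* was above *Rybp*, and *Cbx7* above *Ezh1*, in both lines. In the other genotype *Cbx7* (509 ± 126) stood beside *Cbx2* (545 ± 3.04) and above *Rybp* (295 ± 33.0) and *Cbx6* (272 ± 26.8). The order depends on the length used. Per kilobase of the longest transcript, *Ezh2* was above *Suz12* in WT on average, at 1037 ± 304 against 909 ± 10.5, while its lines lay on either side of *Suz12*. By that length *Ezh1*, at 257 ± 8.72, was above *Rybp* (216 ± 24.5) and *Cbx7* (205 ± 46.2) in WT.

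The WT lines lay further apart than the *Taf4a*-/- lines for 5 of the 10 genes, and less far apart for the other 5. *Cbx2*, *Phc1* and *Ezh2* differed most between the WT lines. WT replicate 1 exceeded replicate 2 by 0.996 for *Cbx2*, 0.69 for *Phc1*, 0.61 for *Ezh2* and 0.46 for *Cbx7* on the log2 scale, while *Suz12* and *Eed* differed by -0.02 and -0.01. Over all genes tested, the median size of that difference was 0.26. Other lists differed between WT replicates 1 and 2 as well. The median difference was 0.85 for the pluripotent cell markers and 0.38 for the cycling cell markers. It was 1.05 for the Polycomb target regulators described below. For the fibroblast, macrophage and cardiomyocyte markers it was -0.35, -0.30 and -0.09, and for the visceral endoderm and liver markers 0.06. The part of any of these in the differences of the 10 genes was not tested. In the libraries labelled *Taf4a*-/- the 10 genes differed between lines by at most 0.51, for *Cbx7*. Counting error was small beside this, at most 4.21% for the lowest of the 40 values, since the 10 genes had from 563 to 7064 reads.

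Which of the 10 genes were called depended on the lines used. Without *Taf4a*-/- replicate 1, 2 genes were called, *Jarid2* and *Cbx7*, against 3.69% of all genes called higher. Without *Taf4a*-/- replicate 2 the called genes were *Suz12*, *Cbx7* and *Phc1*, again against 3.69% of all genes. Without WT replicate 1, 7 were called, which added *Ezh2* and *Cbx2*, against 14.6%, and without WT replicate 2 the 4 called were *Eed*, *Jarid2*, *Cbx2* and *Phc1*, against 4.40%. In these fits the lone library is assumed to vary like the other pair. Apart from *Ezh1* and *Cbx6*, none of the 10 genes changed sign in the 15 alternatives run.

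**Figure D3:**
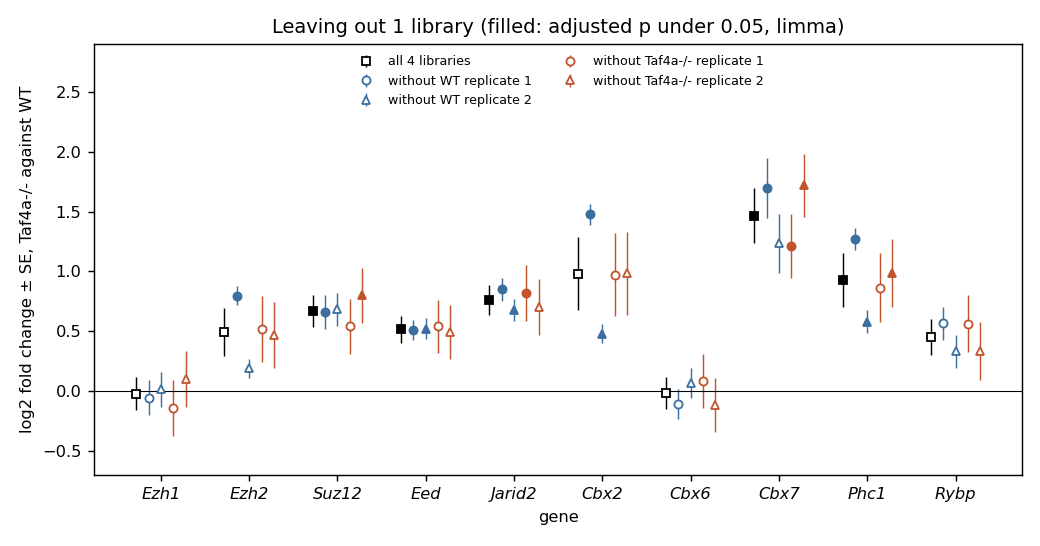
Log2 fold change of *Taf4a*-/- against WT with its standard error (y axis) for each of the 10 genes (x axis), with all 4 libraries (black squares) and with each library left out in turn (coloured circles and triangles), where filled symbols have an adjusted p under 0.05 from limma. *Ezh2*, *Cbx2* and *Phc1* are higher without WT replicate 1 and lower without WT replicate 2, and *Eed* hardly moves.

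The other genes of the complexes, taken from a list of 8 for PRC2 and 23 for PRC1, were more mixed. Of the PRC2 genes, 3 were higher, 1 was lower and 4 did not pass, with a median log2 fold change of 0.13. The PRC2 shares were 37.5% higher and 12.5% lower, against 11.3% and 17.3% of all genes tested. The genes that rose were accessory subunits, *Mtf2* at 0.89 (adjusted p = 0.00753), *Epop* at 0.66 (adjusted p = 0.0160, listed as *E130012A19Rik*) and *Aebp2* at 0.55 (adjusted p = 0.0175 from limma). *Epop* stayed called only without WT replicate 1, and *Aebp2* was not called when either *Taf4a*-/- library was left out (adjusted p = 0.129 and 0.132 from limma). *Mtf2*, which binds CG-rich DNA and was called whichever library was left out, had 2635 and 2160.2 normalized counts in WT and 4371 and 4478 in the libraries labelled *Taf4a*-/-. *Rbbp7*, a histone-binding subunit that other chromatin complexes share, had 11256 and 14469 normalized counts in WT and 8261 and 7817 in the others. It fell by 0.67 on the log2 scale (SE 0.16, limma adjusted p = 0.0266). The *Rbbp7* call stayed without WT replicate 1 and was lost without each of the other libraries. Its paralogue *Rbbp4* had a log2 fold change of 0.08 ± 0.13 (limma adjusted p = 0.643).

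Of the 23 other PRC1 genes, 3 were higher and 0 were lower, and the median log2 fold change was 0.16 (2 were lower at an unadjusted p under 0.05, and 0 with voom). The share called higher was 13.0%, close to the 11.3% of all genes tested. *L3mbtl2*, of a variant complex with E2f6, had a log2 fold change of 0.96 (adjusted p = 0.0119), *Auts2* 0.83 (adjusted p = 0.0235) and *Bmi1* 0.60 (adjusted p = 0.0359 from limma). *Bmi1*, which activates the ubiquitin ligase, had 609 and 495 normalized counts in WT and 849 and 821 in the libraries labelled *Taf4a*-/-. The ligases did not pass, at -0.16 for *Rnf2* and -0.19 for *Ring1*. *L3mbtl2* was called whichever library was left out, and *Bmi1* only without WT replicate 1. *Auts2* was not called without *Taf4a*-/- replicate 2 (adjusted p = 0.0916) or without WT replicate 2 (adjusted p = 0.0761 from limma). Over all 41 genes of both complexes, 11 (26.8%) were higher and 1 (2.44%) was lower, at a median of 0.24. The shares of all genes tested were 11.3% and 17.3%. The 11 include the 5 called among the 10 genes described first.

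Genes listed here as opposing Polycomb were also higher where they passed the test. The list holds the PR-DUB deubiquitinase with its partners, H3K27 demethylases, and methyltransferases of lysine 4 of histone H3. Whether each of them opposes silencing in these cells was not tested. Of 14 such genes, 5 (35.7%, against 11.3% of all genes tested) were higher and 0 were lower (0 also at an unadjusted p under 0.05 and with voom), with a median log2 fold change of 0.53. All 4 trithorax-type methyltransferases of lysine 4 of histone H3 on the list were higher, namely *Kmt2d* at 0.69 (adjusted p = 0.0422), *Kmt2a* at 0.62 (adjusted p = 0.0154), *Kmt2b* at 0.60 (adjusted p = 0.0208) and *Kmt2c* at 0.52 (adjusted p = 0.0290 from limma), which the table lists under older Mll names and as *Wbp7*. *Ogt*, a sugar transferase that acts with the PR-DUB deubiquitinase, had 7944 and 7356 normalized counts in WT and 12696 and 13985 in the others, a log2 fold change of 0.80 (adjusted p = 0.00846). Without *Taf4a*-/- replicate 2, 0 of the 14 were called higher, against 3.69% of all genes. There were 2 without *Taf4a*-/- replicate 1, against 3.69%, 2 without WT replicate 2, against 4.40%, and 9 without WT replicate 1, against 14.6%. None of the 4 methyltransferases was called when either *Taf4a*-/- library was left out, and without WT replicate 2 only *Kmt2a* was. The H3K27 demethylase *Kdm6a*, an X-linked gene, was at 1933 and 1771 normalized counts in WT and 2306 and 4089 in *Taf4a*-/- lines 1 and 2, and did not pass (limma adjusted p = 0.0832). It was called at 1.14 without *Taf4a*-/- replicate 1 (adjusted p = 0.00545), and was at 0.32 without replicate 2. *Kdm6b*, of the same enzyme family, was at -0.10 and did not pass.

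**Figure D4:**
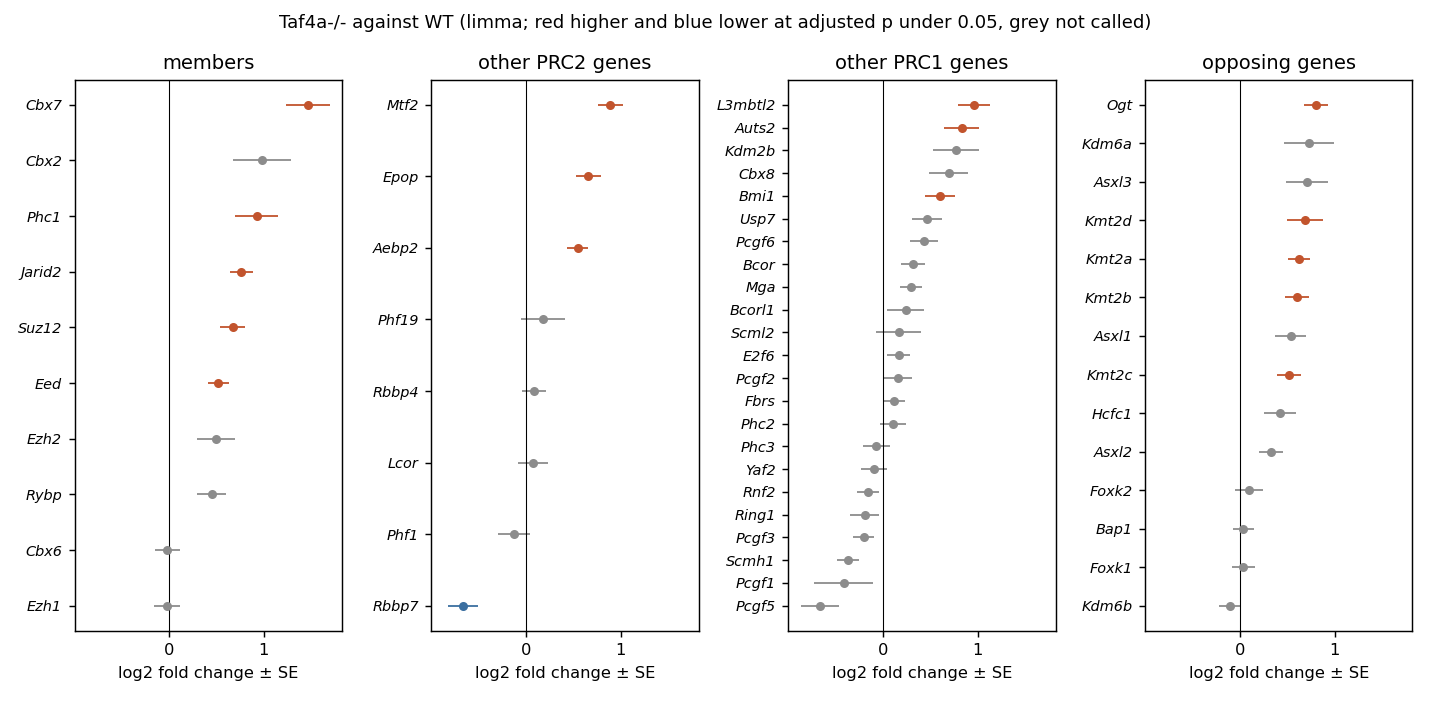
Log2 fold change of *Taf4a*-/- against WT with its standard error (x axis) for the 10 genes, 8 other PRC2 genes, 23 other PRC1 genes and 14 opposing genes (y axis), in red where higher and blue where lower at an adjusted p under 0.05 from limma, and grey otherwise. *Rbbp7* is the only blue point, and 4 of the 5 red points of the opposing genes are methyltransferases *Kmt2a* to *Kmt2d*.

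Developmental regulators that textbooks give as Polycomb targets in ESCs did not move as 1 group. Of 36 listed, 35 were found and 31 were tested, and 2 were higher, 8 were lower and 21 did not pass, with a median log2 fold change of -0.08. The shares were 6.45% higher and 25.8% lower, against 11.3% and 17.3% of all genes tested. The lower genes with the largest sizes were *Pax9* at -3.18 (adjusted p = 0.00683), *Tbx5* at -2.87 (adjusted p = 0.00203) and *Shh* at -2.18 (adjusted p = 0.0133 from limma). *Tbx5* is a cardiac regulator and fell with the cardiomyocyte markers. *Olig2* at 2.28 (adjusted p = 0.0381) and *Msx1* at 2.42 (adjusted p = 0.0444) were higher, and *Msx1* was at 850 and 166 normalized counts in WT lines 1 and 2 against 1824 and 2239.6. With quantile normalization 4 of these regulators were higher, where the genes called higher over all those tested also rose, from 1906 to 2676. *Tbx5* and *Shh* were called lower, and *Msx1* higher, whichever library was left out. *Pax9* was not called without WT replicate 2 (adjusted p = 0.0583 from limma). *Olig2* ran from 1.35 to 3.20 with a library left out, and was not called without *Taf4a*-/- replicate 2 (adjusted p = 0.0687) or without WT replicate 2 (adjusted p = 0.0661 from limma).

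The *Cdkn2a* and *Cdkn2b* genes, neighbours that encode cell cycle inhibitors and are known targets of *Cbx7* and *Bmi1*, were both lower. Whether *Cbx7* or *Bmi1* had a part in this was not tested. *Cdkn2a* was at 528 and 1274 normalized counts in WT lines 1 and 2, and at 302 and 276 in the libraries labelled *Taf4a*-/-. *Cdkn2b* was at 461 and 1196 in WT and at 264 ± 19.8 in the others (SD, n = 2). WT replicate 2 was the highest library for both genes, and the genotypes did not overlap. The log2 fold changes were -1.50 (SE 0.39, limma adjusted p = 0.0355) and -1.49 (SE 0.42, limma adjusted p = 0.0442). Without WT replicate 2 neither gene was called, at -0.87 (adjusted p = 0.0552) and -0.80 (adjusted p = 0.0657). *Cdkn2b* was not called without *Taf4a*-/- replicate 2 either, at -1.41 (adjusted p = 0.0570). The other lower genes were *Foxa2* at -1.07 (adjusted p = 0.0231), *Gata6* at -0.78 (adjusted p = 0.00979) and *Gata4* at -0.63 (adjusted p = 0.0323 from limma). With a library left out, *Foxa2* stayed called only without *Taf4a*-/- replicate 1, at -1.40, and *Gata4* only without WT replicate 1, at -0.80. *Gata6* was not called without *Taf4a*-/- replicate 1 (adjusted p = 0.0795) or without WT replicate 2 (adjusted p = 0.0528 from limma).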

How the data were processed

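Poly-A RNA of 4 libraries was prepared with a kit that does not mark strand. The authors mapped the reads to mm9 and deposited, for 24637 genes, read counts divided by 1 DESeq size factor per library. The submitters' processing notes name CASAVA 1.8, TopHat 1.3.3 and HTSeq 0.5.3p1. All deposited values were whole multiples of the value of 1 read (100% within 0.001), so reads were recovered. Intervals and errors on them cover counting error only, since molecules were not marked.

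What was computed starts there. The 16926 genes whose mean reached 10 normalized counts entered 1 fit of genotype in limma 3.58.1 under R 4.3.3 (lmFit, then eBayes with a variance trend, 4.17 prior degrees of freedom) on log2(value + 1), a scale that understates changes of low genes. Calls needed an adjusted p-value (Benjamini-Hochberg) under 0.05. Reads of this comparison were simulated over 16925 genes, all with the same dispersion of 0.01065. In them, 99% of 100 genes changed by 1 on the log2 scale were called in the right direction. Of 100 changed by 0.5, 36% were called so, and 4.93% of calls were unchanged genes. In the data the spread differs between genes and many more genes were called, so these shares need not hold there. Levels between genes are per kilobase of the union of exons in the NCBIM37 annotation. All 24637 identifiers were found there. Promoter windows come from RefSeq (GRCm38.p6), and the windows of *Cbx2* and *Rybp* were not used here.

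The 10 genes and the lists were chosen with earlier results of these data known. Named genes were the 10, *Taf4a*, their paralogues (1 of which is not reported here), and in each list the called genes with a log2 fold change of at least 1 in size, otherwise at most 5 called genes with the largest changes, and for each of the 10 the 3 nearest patterns. Marker lists are given by counts. *Kdm6a*, *Kdm6b*, *Rnf2*, *Ring1*, *Uty*, *Cdk1* and *Gata4* and *Gata6* were named after their values were seen. Python 3.11.15 with matplotlib 3.10.9 drew the figures. Alternatives were other pseudocounts, filters, scalings, variance models and thresholds, voom, a replicate block and each library left out.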

Additional observations from a re-analysis of the deposited data

How the results depend on the processing

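The log2 fold changes of the 8 genes other than *Ezh1* and *Cbx6* kept their sign under the 15 alternatives run. *Ezh1* was at 0.038 with equal totals, 0.052 with quantile normalization, 0.041 with voom and -0.14 to 0.10 with a library left out, where it was 0.013 without WT replicate 2, and *Cbx6* was at 0.042 with equal totals, 0.042 with voom and -0.12 to 0.083 with a library left out, where it was 0.070 without WT replicate 2. Quantile normalization put the median of all genes at 0.11. Without a variance trend 856 genes were higher and 1741 lower, with 2 of the 10 Polycomb genes higher, 1 other PRC2 gene higher and 0 lower, 0 other PRC1 genes higher, 1 opposing gene higher, and 0 target regulators higher and 4 lower. At an adjusted p under 0.01 these were 331 and 1119 genes, 2 of the 10, 1 and 0 PRC2 genes, 0 PRC1 genes, 1 opposing gene, and 0 and 3 target regulators. Target regulators called higher were 4 with quantile normalization and 6 with the replicate block, and 1 other PRC1 gene was lower with equal chromosome medians. Over all genes tested, 2676 were higher with quantile normalization and 1536 with the replicate block, and 2926 were lower with equal chromosome medians. The cause was not tested. The mean ratio of *Ezh2* to *Ezh1* in the libraries labelled *Taf4a*-/- was 4.29, and 5.67 with the longest transcript, by the lengths alone.

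With each library left out in turn, 624 to 2476 genes were higher and 1222 to 3038 lower. The 10 Polycomb genes gave 2 to 7 higher and 0 lower, the other PRC2 genes 1 to 3 and 0 to 1, the other PRC1 genes 1 to 6 and 0 to 1, the opposing genes 0 to 9 and 0, and the target regulators 1 to 9 and 4 to 7. Same-numbered libraries hardly shared deviations from their genotype means (correlation 0.01 over 16926 genes). That value cannot show whether they were handled together. With the replicate numbers as a block 6 of the 10 genes were called, with *Cbx2* added (limma adjusted p = 0.0338). Over all genes, 1536 were then higher and 2657 lower. TMM scaling, edgeR's quasi-likelihood test and DESeq2 on the recovered reads were not run. In the simulated reads, 36% of the genes changed by 0.5 on the log2 scale were called, a share that need not hold in the data.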

Other observations

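The genes whose pattern over the 4 libraries was most like each of the 10 were sought by the root mean square distance between log2 values centred on the gene mean, over 16926 genes. With 4 libraries and so many genes, small distances are common. The 3 nearest were *Tchh* (0.0057), *Pno1* (0.0075) and *Cbx8* (0.016) for *Suz12*, *Rars2* (0.0086), *5830417I10Rik* and *D14Abb1e* (0.011) for *Eed*, and *Nol6* (0.014), *Ylpm1* and *Zfp619* (0.023) for *Jarid2*. They were *Ccdc78* (0.062), *1700009P17Rik* and *2610027K06Rik* (0.082) for *Cbx7*, and *Gm14091* (0.0089), *Slmo1* and *Galnt5* (0.016) for *Phc1*. For the genes that did not pass, they were *B4galnt4* (0.028), *Trim28* and *Gfod2* (0.030) for *Ezh2*, *Tril* (0.028), *Gm3470* and *Ms4a4d* (0.050) for *Cbx2*, *Tgfbr1* (0.023), *Fibp* and *Xrn2* (0.024) for *Rybp*, *Cdc42se2* (0.0089), *Tmem150a* and *Flot2* (0.012) for *Ezh1*, and *Tsnax* (0.011), *Tmem126a* and *Vdac3-ps1* (0.011) for *Cbx6*. *Cbx7* had the largest distance to its nearest gene.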
